A study of Homo sapiens with 8 samples.

Results

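The effect of Y15 on gene expression was set against the effect of an siRNA against HAS3 in SW620 cells, an established human colorectal cancer line of epithelial origin. The comparison used all 8 arrays of the series, 2 in each of 4 groups: untreated cells, cells given Y15 at 4 uM, cells given HAS3 siRNA, and cells given a scrambled siRNA as its control. All cells were kept for 24 h. Arrays were grouped by sample title, and each group's arrays carry the numbers 1 and 2, given below in that order. The Y15 effect is Y15 minus untreated, the HAS3 siRNA effect is HAS3 siRNA minus scrambled, and the difference is the HAS3 siRNA effect minus the Y15 effect, all on normalised log2 intensities. Of 16922 named genes on the array, 10856 were detected on 2 or more arrays and tested. The labels do not say whether the arrays of a group came from separate cultures, so p-values reflect only the spread among them, possibly technical.

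Focal adhesion kinase (FAK), encoded by PTK2, is a tyrosine kinase that integrins recruit to sites of attachment to the matrix, and it passes signals to Src, the ERK cascade and the cytoskeleton. Y15 is a small-molecule inhibitor of its autophosphorylation. Hyaluronan is a long matrix polysaccharide spun out at the plasma membrane by hyaluronan synthases, of which HAS3 is one, and it is bound at the cell surface by CD44. Both pathways are studied in colorectal cancer for their part in growth, survival and migration. The contrast between the effects asks which genes respond to one inhibition and not to the other, or respond to both in opposite ways.

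Mean probe intensity per array was 352.1 to 524.7, with Y15 replicate 2 lower at 234.1, and 12578 to 13916 of 24526 probes were detected. The number of arrays limits the precision: the median standard error was 0.15 for a single effect and 0.22 for the difference. HAS3 itself read 9.32 and 9.50 in untreated cells, 9.45 and 9.22 with Y15, 10.49 and 10.16 with the scrambled sequence and 10.05 and 9.73 with HAS3 siRNA. The siRNA arrays were below both scrambled arrays and above both untreated arrays. The HAS3 siRNA effect on HAS3 was -0.43 ± 0.17 (SE) and did not pass (adjusted p = 0.151), whereas the scrambled arrays lay 0.91 above the untreated ones (adjusted p = 0.00329). PTK2 had no called difference (-0.01, adjusted p = 0.966). Of markers of other cell types, 5 of 12 for fibroblasts, 5 of 10 for endothelium and 4 of 11 for leukocytes were detected on 2 or more arrays, and PTPRC, CD3D, CDH5 and COL3A1 on none or 1. Of 12 colon epithelial markers, 8 were detected, and CDX1, GPA33, KRT20 and LGALS4 were not. The summed intensity of the colon markers was 20836 to 25985 in untreated cells, 9893 to 22091 with Y15, 17990 to 18494 scrambled and 20503 to 22893 with HAS3 siRNA. Mean probe intensity was also lowest on Y15 replicate 2. On normalised log2 values, relative to untreated cells, the median of the 8 detected markers was -0.04 and -0.07 with Y15. It was 0.16 and 0.26 on the scrambled arrays and 0.06 and 0.39 on the siRNA arrays. The part of this spread in the results was not tested.

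The effects differed at 3345 genes (30.8% of those tested, limma, Benjamini-Hochberg adjusted p under 0.05). The difference was positive at 1850 (17.0%) and negative at 1495 (13.8%). Taken alone, Y15 raised 2040 genes (18.8%) and lowered 2498 (23.0%), and HAS3 siRNA raised 377 (3.47%) and lowered 515 (4.74%). The Y15 effects were also wider across genes, with an SD of 0.63 against 0.36 on the log2 scale. The groups of the single effects share no arrays. The controls were not alike either: scrambled arrays were above untreated ones at 960 genes (8.84%) and below them at 1158 (10.7%), and that difference is therefore given beside the results it touches.

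Sorting genes by their calls gave 105 that rose with Y15 and fell with HAS3 siRNA (0.967%) and 125 that fell with Y15 and rose with HAS3 siRNA (1.15%). A gene was counted as responding to 1 treatment only where that effect passed, the other did not, and the difference itself passed. By that rule 1097 genes rose with Y15 only (10.1%), 1402 fell with Y15 only (12.9%), 138 rose with HAS3 siRNA only (1.27%) and 140 fell with HAS3 siRNA only (1.29%). In the same direction, 66 rose (0.608%) and 194 fell (1.79%) with both. For 744 of the 1097 and 928 of the 1402 Y15-only genes the 95% interval of the HAS3 siRNA effect lay within 1.5-fold either way, so for the others a change of that size with the siRNA was not excluded. Where a gene was undetected in both groups of one effect, that effect has no measured size and the class rests on the floor of detection; of the genes named below this holds for EREG, LIF, DUSP10, KLF9, HRK, DKK1, NRARP, CDKN1A, HBA2, LHB, CGB1, CGB5 and ALDH1A1. Among the 125 genes that fell with Y15 and rose with HAS3 siRNA, 77 were lower in scrambled than in untreated cells and 2 higher. Among the 105 of the other pattern, 39 were higher in scrambled cells and 7 lower. Of all genes, 8.84% were higher and 10.7% lower. The untreated and scrambled arrays also enter the calls that define the 2 patterns. This lean is thus partly built in and is no separate result.

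The direction of the whole comparison depended on scaling. Quantile normalisation gave 55.3% positive calls, median centring over all probes gave 90.0% (3035 positive and 339 negative) and median centring over the detected probes gave 31.6% (1085 and 2345). Those scalings moved the median difference of all genes to 0.46 and -0.25, from 0.04. Counts of opposite genes rested on the transfected arrays: they were 119 and 99 of any direction without scrambled replicate 1 or 2, and 100 and 116 without HAS3 siRNA replicate 1 or 2, against 230 with all arrays. Of the opposite genes, 16 of the first pattern and 31 of the second kept their class under every setting tried.

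**Figure D1:**
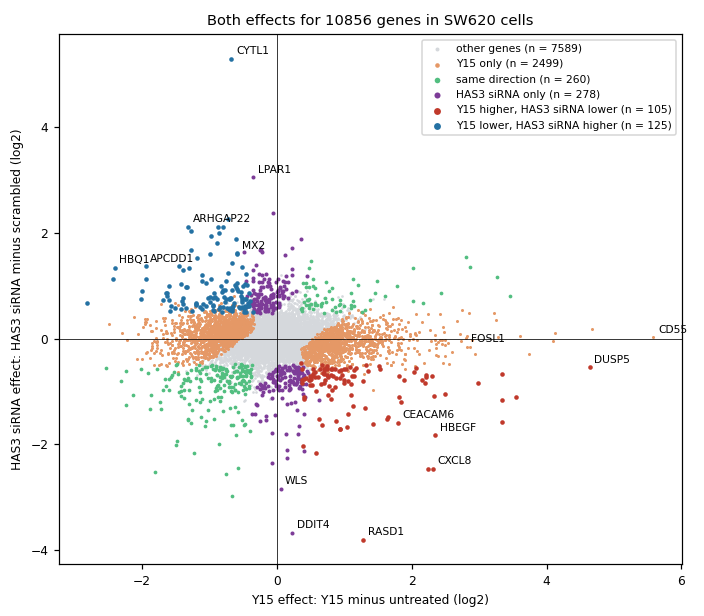
Each point is 1 of the 10856 tested genes, with the Y15 effect on the x axis and the HAS3 siRNA effect on the y axis (log2). Colours mark the 105 and 125 genes called in opposite directions and those called with 1 treatment only; the cloud is wider along the Y15 axis (SD 0.63) than along the HAS3 siRNA axis (SD 0.36).

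Negative differences, where Y15 stood above HAS3 siRNA, made up 19 of 28 immediate early genes, 10 of 18 regulators of ERK feedback, 10 of 21 annexins and S100 proteins, 7 of 16 YAP and TEAD targets, 11 of 26 p53 targets and 17 of 42 ATF4 targets, beside 13.8% of all genes. Positive differences made up 19 of 38 genes of Wnt feedback and colon stem cells and 10 of 30 Notch pathway genes, beside 17.0% of all genes. The sign of the median difference of the immediate early, ERK feedback, annexin and S100, YAP, p53, ATF4, Wnt and Notch lists was the same under every setting, both centrings included.

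**Figure D2:**
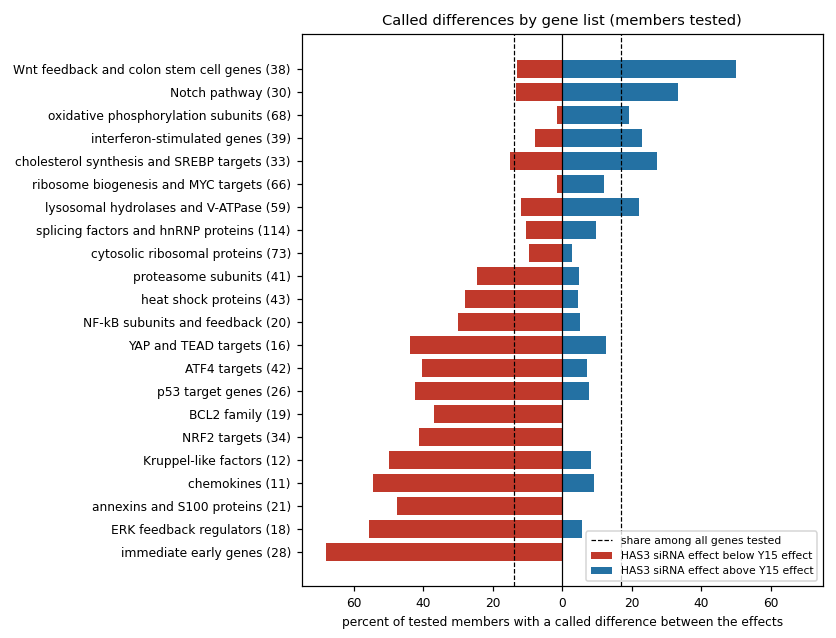
For 22 gene lists, bars give the percent of tested members with a called negative difference (Y15 effect above HAS3 siRNA effect) and with a called positive one; dashed lines are the shares of all genes, 13.8% and 17.0%. Immediate early genes stand at the negative end with 19 of 28 members, and Wnt feedback and colon stem cell genes at the positive end with 19 of 38.

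Ranked by the smaller of the 2 changes, CXCL8, ATF3 and HBEGF led the genes that rose with Y15 and fell with HAS3 siRNA. CXCL8, the neutrophil-attracting chemokine interleukin 8, read 9.56 and 9.99 in untreated cells, 12.20 and 11.96 with Y15, 9.92 and 10.65 with the scrambled sequence and 7.93 and 7.71 with HAS3 siRNA. The Y15 arrays were the highest and the siRNA arrays the lowest, with no overlap on either side. The Y15 effect was 2.31 ± 0.23 (adjusted p = 1.39e-05) and the HAS3 siRNA effect -2.46 ± 0.23 (adjusted p = 4.35e-05), and scrambled cells differed from untreated ones by 0.51 (adjusted p = 0.134). HBEGF, a membrane-shed ligand of the EGF receptor, read 7.56 and 7.74 untreated, 9.99 or above on both Y15 arrays, 7.72 and 8.30 scrambled and 6.10 and 6.26 with HAS3 siRNA. Its effects were 2.35 ± 0.18 and -1.83 ± 0.18, again with no overlap. ATF3, a stress-induced transcription factor of the ATF and CREB family, rose by 2.24 ± 0.26 with Y15 and fell by 2.46 on the log2 scale with the siRNA. CXCL8 and HBEGF kept both calls under all 19 settings and ATF3 under all 18 in which it was tested.

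Other chemokines and EGF-family members were divided among the classes. CCL20, which attracts cells through CCR6, rose by 1.30 with Y15 and fell by 1.31 with HAS3 siRNA (adjusted p = 0.000717 and 0.00337), and the fall was not called without HAS3 siRNA replicate 2. IL11, CCL26, LIF and CXCL2 rose with Y15 only, and CXCL6 and CXCL16 fell with both. Together 6 of 11 chemokine and cytokine genes had a negative difference, beside 13.8% of all genes. Of the EGF family, EREG, undetected in all groups but Y15, was at least 3.37-fold higher with Y15, and TGFA rose with Y15 only (0.78 ± 0.16). The receptor ERBB2 fell with Y15 only (-0.99). ERBB3, its dimerisation partner, fell by 1.55 with Y15 and by 0.68 with the siRNA on its brightest probe, but its other probes had differences of -0.83 and -0.38 against 0.87, so the direction for ERBB3 is uncertain, and its fall with the siRNA was not called without scrambled replicate 2 or either siRNA array. The ligand NRG4 rose with HAS3 siRNA only (0.65), a class lost when any 1 transfected array or Y15 replicate 1 was left out.

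CXCL8 and MUC13, a membrane mucin described further on, carry an AP-1 element in the promoter, the stretch from 250 bases before to 50 bases after the gene start (RefSeq, GRCh38.p14). AP-1 is the dimer of Fos and Jun proteins. The elements are shown with 12 bases on each side, read 5′ to 3′ on the gene's strand, with the 7 bases of the motif TGANTCA in capitals.
CXCL8, chr4:73740420-73740450, plus strand: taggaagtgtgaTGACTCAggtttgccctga
MUC13, chr3:124934911-124934941, minus strand: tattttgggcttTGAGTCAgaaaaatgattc
The motif was sought on both strands. It was found in 6 of 90 promoters of genes that rose with Y15 and fell with HAS3 siRNA (6.67%: CXCL8, DDIT3, INPP1, ISG20, MUC13 and RAET1L), in 59 of 883 of genes that rose with Y15 only (6.68%), and in 407 of 8959 promoters of all tested genes that had one (4.54%). These are matches of letters, with no measure of binding.

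Immediate early genes are switched on within minutes of growth factor or stress signals. Of 28 measured, 21 rose with Y15 and 9 fell with HAS3 siRNA, beside 18.8% and 4.74% of all genes. In 8 both calls were made: HBEGF, KLF4, PPP1R15A, MCL1, EGR3, ZFP36, ZFP36L1 and EGR1. The count of opposite members was 4 without scrambled replicate 2 and 3 without HAS3 siRNA replicate 1, while the count with a negative difference stayed at 19 or 20 whichever array was left out. The median member rose by 1.66 with Y15 and stood at -0.22 with HAS3 siRNA, 0.09 higher in scrambled than in untreated cells. EGR1, the zinc finger factor induced by ERK signalling, read 10.32 and 10.34 untreated, 11.57 and 11.62 with Y15, 11.28 and 11.44 scrambled and 10.58 and 10.52 with HAS3 siRNA. Its HAS3 siRNA effect, -0.81, thus started from a scrambled level 1.03 above untreated. MCL1, a survival protein of the BCL2 family, stood at -0.70 with the siRNA from a scrambled level 1.32 above untreated, and a second MCL1 probe showed a smaller difference of the same sign. The opposite call of MCL1 was lost without scrambled replicate 2 or either siRNA array.

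SGK1, KLF6, CCN2, ARC, PLK2, IER5, GADD45B, CCN1 and IER2 rose with Y15 only. NR4A2, an orphan nuclear receptor, was the sole member that fell with HAS3 siRNA only (-0.94, adjusted p = 0.00121). TRIB1 and KLF2 rose with both. KLF10 did so on its brightest probe, but a nearly as bright probe of KLF10 had effects of 1.14 and 0.06 and a difference of -1.08, so its class is uncertain. A second EGR3 probe, about as bright, had a difference of -0.76 against -2.94. In the list of AP-1 subunits only FOSL1 fell in the class that rose with Y15 only. FOSL1, the Fos-related subunit Fra-1, read 8.51 and 8.16 untreated, 11.24 and 11.06 with Y15, 8.70 and 8.67 scrambled and 8.63 and 8.44 with HAS3 siRNA. The other 3 groups lay together, the HAS3 siRNA effect was -0.15 ± 0.16, and its 95% interval was within 1.5-fold.

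Krüppel-like factors are zinc finger proteins that in the gut govern the passage from dividing crypt cell to differentiated villus cell. KLF4, high in differentiated epithelium, read 7.80 and 7.86 untreated, 9.38 and 9.14 with Y15, 7.56 and 8.32 scrambled and 6.07 and 6.58 with HAS3 siRNA. KLF5, high in dividing crypt cells, read 7.42 and 7.54, then 9.14 and 9.45, 8.11 and 8.30, and 7.10 and 7.11 in the same order. Both factors moved in opposite directions with the treatments and kept both calls under all 19 settings. KLF6, KLF9 and KLF3 rose with Y15 only, KLF15 fell with Y15 only (-0.75), and KLF12 fell with HAS3 siRNA only (-1.12). KLF2 and KLF11 rose with both, as did KLF10 on 1 of its 3 probes. The family of 12 had 6 negative differences and 1 positive one, beside 13.8% and 17.0% of all genes.

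Dual-specificity phosphatases remove the activating phosphates of MAP kinases and are induced by the kinases they curb. DUSP5, a nuclear phosphatase for ERK, read 7.45 and 7.50 untreated, 12.22 and a little less with Y15, 7.39 and 7.56 scrambled and 6.91 and 6.96 with HAS3 siRNA. Its rise, 4.64 ± 0.14, was far outside the spread of any group, whereas its fall of 0.54 on the log2 scale with the siRNA (adjusted p = 0.031) was not called once any 1 transfected array was left out. DUSP16, which acts on the stress kinases, moved by 1.10 with Y15 and by -1.07 with the siRNA and kept both calls. DUSP4, DUSP8, DUSP1, DUSP10, DUSP14 and SPRY4 rose with Y15 only, and SPRY1 fell with Y15 only (-1.51). DUSP6, ETV4 and ETV5, commonly read as ERK output, had no called effect or difference. A second DUSP6 probe had effects of -0.88 and -0.52 and a difference of 0.36 that did not pass. For DUSP6 the lack of a called effect thus holds on its brightest probe. PHLDA1 fell with HAS3 siRNA only (-0.54).

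**Figure D3:**
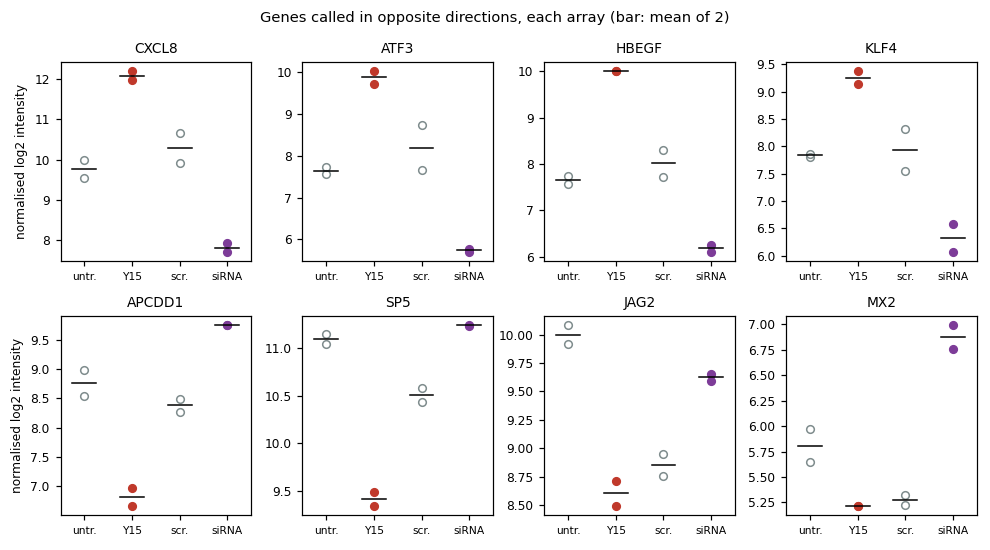
Normalised log2 intensity on each of the 8 arrays for CXCL8, ATF3, HBEGF and KLF4, which rose with Y15 and fell with HAS3 siRNA, and for APCDD1, SP5, JAG2 and MX2, which did the reverse. In each of the 8 genes the 2 Y15 arrays lie on one side of both untreated arrays and the 2 siRNA arrays on the other side of both scrambled arrays; horizontal bars are group means.

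Genes of the epithelial surface took part as well. CEACAM6, a cell adhesion molecule overproduced in colorectal tumours, read 4.77 and 4.99 untreated, 6.60 and 6.75 with Y15, 7.04 on average over the scrambled arrays, and 5.41 and 5.50 with HAS3 siRNA. Y15 arrays stood above untreated ones and siRNA arrays below scrambled ones, but scrambled cells already stood 2.16 above untreated cells (adjusted p = 4.43e-06). FGFBP1, which releases fibroblast growth factors from the matrix, had the same form: effects of 3.34 and -1.58, with scrambled cells 3.41 above untreated cells. MUC13 rose by 1.05 with Y15 and fell by 1.68 with the siRNA, and read 7.33 and 7.06, 7.99 and 8.49, 7.81 and 7.74, and 5.95 and 6.25. MUC1, another membrane mucin, went the other way, with effects of -0.89 and 0.75, the rise not being called without either scrambled array or HAS3 siRNA replicate 2. GJB2, a gap junction connexin, rose by 1.63 and fell by 1.51, and TMEM154, a membrane protein, rose by 1.65 and was at least 2.27-fold lower with the siRNA, where it was undetected.

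RASD1, a small Ras-like GTPase, had a difference of -5.08 ± 0.34. It read 6.64 and 6.75 untreated, 8.15 and 7.78 with Y15, 8.50 and 9.40 scrambled and 5.22 and 5.07 with HAS3 siRNA. The HAS3 siRNA effect, -3.80, was larger in size than the rise with Y15, and scrambled cells stood 2.26 above untreated ones. RAET1L, which natural killer cells recognise through NKG2D, rose by 3.54 with Y15 and fell by 1.10 with the siRNA. CD55, which shields cells from complement, had the largest negative difference of the list of complement regulators and NKG2D ligands: 5.33 and 5.67 untreated, 11.14 and 11.04 with Y15, 4.80 and 4.65 scrambled, and 4.87 and 4.62 with HAS3 siRNA. It rose by 5.58 ± 0.16 with Y15 and was not called with the siRNA. Both scrambled arrays and HAS3 siRNA replicate 2 lay under the lowest detected values of those arrays (4.99, 4.83 and 4.84). A fall of CD55 with the siRNA could therefore not be seen.

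Among cell death genes, PMAIP1, the BH3-only protein NOXA, rose by 2.49 ± 0.17 with Y15 and fell by 1.05 on the log2 scale with HAS3 siRNA, a call lost under median centring. BAK1, BCL2L11, BNIP1, BCL2L12 and HRK rose with Y15 only. A second BCL2L11 probe, nearly as bright, had effects of 1.38 and 0.74 and a difference of -0.64 that did not pass. A second BNIP1 probe had a difference of -0.65, which did not pass either. The classes of BCL2L11 and BNIP1 thus hold on their brightest probes. No member of the BCL2 list of 19 had a positive difference and 7 had a negative one, beside 17.0% and 13.8% of all genes. The negative ones numbered 4 without scrambled replicate 2 or HAS3 siRNA replicate 2. The list's median difference, -0.31, turned to 0.15 under median centring.

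ATF4 is a transcription factor whose translation rises when amino acids run short or the endoplasmic reticulum is stressed, and its targets supply amino acids, their carriers and regulators of death. Of 42 measured, 17 fell with HAS3 siRNA and none rose, beside 4.74% and 3.47% of all genes. With Y15, 9 rose and 9 fell, near the shares of all genes (18.8% and 23.0%). A negative difference was called in 17 and a positive one in 3, beside 13.8% and 17.0% of all genes. Opposite calls were made for ATF3, DDIT3, PPP1R15A and VLDLR, and falls with HAS3 siRNA only for DDIT4, CHAC1, GDF15, CEBPB, STC2, SLC38A2, SLC7A1, VEGFA, XPOT and ATF4 itself. For ATF4 a second probe had a difference of -1.07 and another, dim one a difference of 0.94, against -0.93. The controls differed in this list: the median member lay 0.71 lower in scrambled than in untreated cells. Of the 42, 23 were called lower in scrambled cells, beside 10.7% of all genes. The scrambled arrays also differed from each other, at -1.01 and -0.45 relative to untreated cells. The siRNA arrays stood at -1.35 and -1.29 and the Y15 arrays at -0.06 and 0.10 on that scale.

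DDIT4, an inhibitor of the growth kinase complex mTORC1, read 12.22 and 12.09 untreated, 12.44 and 12.33 with Y15, 10.88 and 12.42 scrambled and 8.02 and 7.94 with HAS3 siRNA. Both siRNA arrays lay below every other array, and its HAS3 siRNA effect of -3.67 ± 0.34 was called under all 19 settings. CHAC1, which breaks down glutathione, read 7.88 and 7.49, 7.74 and 7.49, 7.42 and 8.32, and 5.66 and 5.38 in the same order. Its Y15 effect was -0.07 ± 0.25 and its HAS3 siRNA effect -2.35 ± 0.25. GDF15, a stress-induced secreted factor, fell by 2.11 on the log2 scale with the siRNA and stood at 0.14 with Y15. VLDLR, a lipoprotein receptor, was the least stable of the opposite members and lost a call in 9 of 18 settings. DDIT3, which encodes the stress factor CHOP, rose by 1.83 with Y15 and fell by 1.20 with the siRNA, the fall not being called without scrambled replicate 2 or either siRNA array.

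ASNS, asparagine synthetase, read 12.72 and 12.85 untreated, 12.33 and 12.52 with Y15, 9.79 and 10.92 scrambled and 9.68 and 9.66 with HAS3 siRNA. Neither effect nor the difference passed (adjusted p of the difference 0.541), and scrambled cells stood 2.43 below untreated ones. The ASNS difference was -0.89 without scrambled replicate 1 and 0.24 without scrambled replicate 2. PSAT1 had no called effect, and PHGDH, SHMT2 and PCK2 fell with Y15 without a called difference. Dimmer PCK2 probes had differences of 1.04, which passed, and 0.66, against 0.54. For PCK2 the lack of a call thus holds on its brightest probe. CBS and INHBE fell with both. PYCR1, ALDH18A1 and EIF4EBP1 fell with Y15 only. Counts in this list rested on single arrays: without scrambled replicate 2, HAS3 siRNA replicate 1 or HAS3 siRNA replicate 2, the members that fell with the siRNA only numbered 5, 4 and 6 in place of 10, and opposite members 2, 1 and 2 in place of 4. Negative differences numbered 14 to 22 whichever array was left out.

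The promoters of CHAC1, ATF3 and ASNS hold an element of the kind ATF4 binds, an ATF and CRE-like sequence with the letters TGATGNAA, shown in capitals between 12 flanking bases, 5′ to 3′ on the gene's strand (GRCh38.p14). They stand for 3 of the outcomes in the list: a fall with HAS3 siRNA only, an opposite response, and no called effect.
CHAC1, chr15:40953250-40953281, plus strand: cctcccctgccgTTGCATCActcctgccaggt
ATF3, chr1:212565204-212565235, plus strand: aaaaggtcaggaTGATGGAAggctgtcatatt
ASNS, chr7:97872457-97872488, minus strand: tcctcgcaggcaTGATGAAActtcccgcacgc
In CHAC1 the element lies on the opposite strand, so that the capitals read as its reverse complement. They end 201, 183 and 60 bases before the start of CHAC1, ATF3 and ASNS. Among ATF4 targets 6 of 33 promoters held the motif on either strand (18.2%: ATF3, CHAC1, ASNS, SLC3A2, SLC7A1 and FGF21), beside 161 of 8959 promoters of all tested genes (1.80%). Among genes that fell with HAS3 siRNA only it was 3 of 121 (2.48%), and among those that rose with Y15 and fell with the siRNA 3 of 90 (3.33%).

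**Figure D4:**
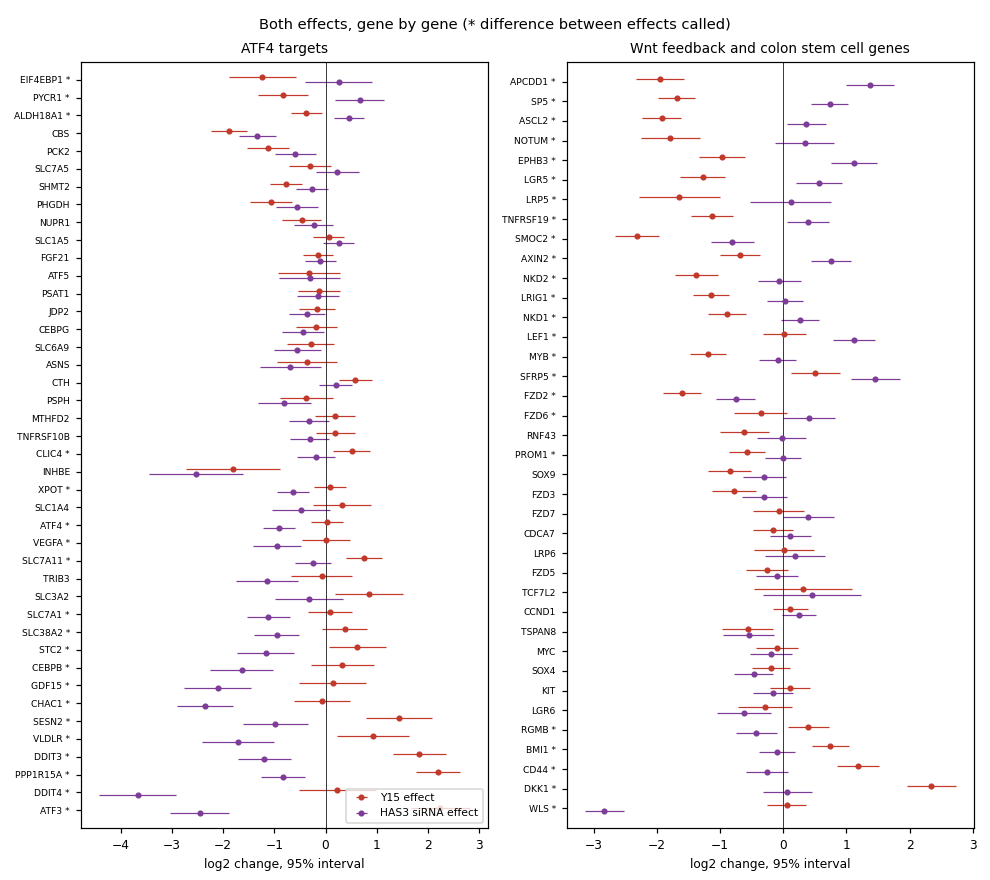
Y15 effect and HAS3 siRNA effect (log2, points) with 95% intervals (lines) for each member of the ATF4 target list and of the Wnt feedback and colon stem cell list, ordered by the difference. In the ATF4 list CHAC1, DDIT4 and GDF15 show a HAS3 siRNA effect below 0 beside a Y15 effect near 0; in the Wnt list APCDD1, SP5, ASCL2 and NOTUM show a Y15 effect below 0 beside a HAS3 siRNA effect above it.

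The reverse pattern, a fall with Y15 and a rise with HAS3 siRNA, included 4 feedback and stem cell genes of Wnt signalling among its 125 members: APCDD1, SP5, AXIN2 and EPHB3. In the colon, Wnt ligands stabilise beta-catenin, which with TCF factors keeps crypt stem cells dividing, and many targets of this pair are themselves inhibitors of the pathway. Most colorectal cancers carry a mutation that switches it on. APCDD1, a membrane inhibitor of Wnt, read 8.98 and 8.54 untreated, 6.97 and 6.66 with Y15, 8.50 and 8.27 scrambled and 9.75 and 9.75 with HAS3 siRNA. Its effects were -1.95 ± 0.17 (adjusted p = 7.56e-06) and 1.37 ± 0.17 (adjusted p = 0.000506), and both calls were kept under all 19 settings. SP5, a transcription factor induced by Wnt, read 11.16 and 11.05, 9.49 and 9.34, 10.58 and 10.44, and 11.25 and 11.24. The siRNA arrays of SP5 returned to the level of the untreated arrays, since scrambled cells lay 0.59 below untreated ones, and its rise was not called without scrambled replicate 2 or HAS3 siRNA replicate 1.

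AXIN2, a scaffold of the complex that degrades beta-catenin, fell by 0.68 with Y15 and rose by 0.76 with HAS3 siRNA. AXIN2 levels in the controls were alike (0.01 apart), yet the opposite call was lost whenever a transfected array was left out. EPHB3, the ephrin receptor that places cells in the lower crypt, fell by 0.97 and rose by 1.12 and kept both calls. Falls with Y15 only included ASCL2, LGR5, NOTUM, LRP5, TNFRSF19, NKD1, NKD2, LRIG1, MYB and PROM1. ASCL2, the master factor of intestinal stem cells, read 12.63 and 12.39 untreated, 10.61 and 10.55 with Y15, 12.22 and 12.09 scrambled and 12.43 and 12.60 with HAS3 siRNA. LGR5, the R-spondin receptor that marks these cells, fell by 1.28 ± 0.17 and was at 0.56 with the siRNA (adjusted p = 0.0607).

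Across the list of 38, 20 fell and 4 rose with Y15, beside 23.0% and 18.8% of all genes. With HAS3 siRNA 3 fell and 6 rose, beside 4.74% and 3.47%. Positive differences numbered 19 and negative ones 5, beside 17.0% and 13.8%. The median member stood at -0.56 and -0.43 on the Y15 arrays relative to untreated cells, at -0.02 on both scrambled arrays and at 0.08 and 0.04 on the siRNA arrays. Positive differences numbered 17 to 20 whichever array was left out. The exceptions were WLS, DKK1, CD44, BMI1 and RGMB. WLS, the carrier that brings Wnt ligands to the cell surface, read 7.17 and 7.23 untreated, 7.22 and 7.29 with Y15, 8.12 and 8.13 scrambled and 5.43 and 5.15 with HAS3 siRNA. It fell with HAS3 siRNA only, at -2.84 ± 0.14, and lay below the untreated level too. DKK1, a secreted Wnt inhibitor, was detected with Y15 alone, where it was at least 3.81-fold higher, and CD44, the hyaluronan receptor, rose with Y15 only (1.19), with scrambled cells 1.34 above untreated ones. LEF1, a partner of beta-catenin, rose with HAS3 siRNA only (1.12 ± 0.15, Y15 effect 0.01). MYC and CCND1 had no called effect or difference.

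Notch passes signals between touching cells: Jagged and Delta ligands on one cell cut loose the intracellular domain of Notch receptors on the next. The ligands JAG1 and JAG2 moved against each other. JAG1 read 8.16 and 8.39 untreated, 10.55 and 10.67 with Y15, 7.85 and 7.95 scrambled and 6.85 and 6.79 with HAS3 siRNA. JAG2 read 10.08 and 9.91, 8.71 and 8.49, 8.75 and 8.95, and 9.59 and 9.66 in the same order. JAG1 thus rose with Y15 and fell with the siRNA, kept under all 19 settings, while JAG2 fell and rose, a rise that began 1.15 below untreated cells and was not called without scrambled replicate 1 or either siRNA array. NOTCH1 had effects of -0.41 and 0.87, the fall not being called without untreated replicate 1 or Y15 replicate 2, and the target HES1 fell with the siRNA only (-1.05). HEY1 and NRARP rose with Y15 only, MAML2, MFNG, RFNG, HES6 and HES2 fell with Y15 only, and LFNG fell with both. Dimmer RFNG probes had differences of 0.13 and 0.84, neither of which passed, against 0.90. The class of RFNG thus rests on its brightest probe. The Notch list of 30 had 10 positive and 4 negative differences (33.3% and 13.3%, beside 17.0% and 13.8% of all genes). Positive ones fell to 5 without scrambled replicate 1 and to 6 without either siRNA array, counts near the share of all genes.

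Interferon-stimulated genes are the antiviral set that interferons and cytosolic nucleic acid sensors induce. MX2 read 5.64 and 5.97 untreated, 5.21 and 5.22 with Y15, 5.23 and 5.33 scrambled and 6.99 and 6.76 with HAS3 siRNA. The siRNA arrays were above all others, by 1.60 ± 0.15 over scrambled. MX1 fell by 0.77 with Y15 and rose by 0.92 with the siRNA, from a scrambled level 0.93 below untreated, and OAS2 was at -0.46 and 0.59. IFIT3 rose with the siRNA only (0.57), ISG20 rose by 1.32 with Y15 and fell by 0.50 with the siRNA, and ISG15, IFI6, EIF2AK2, RIGI and ADAR had no called effect. Of 39 members 4 had opposite calls, beside 0.967% and 1.15% of all genes in the 2 patterns. None had them without untreated replicate 2, and 1 had them without either scrambled array or HAS3 siRNA replicate 2. The median difference of the list, 0.13, turned to -0.21 under centring on the detected probes.

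Several genes of the reverse pattern rose with HAS3 siRNA from a scrambled level far below the untreated one. CYTL1, a small secreted protein, read 7.64 and 7.55 untreated, 6.99 and 6.85 with Y15, 4.42 and 4.48 scrambled and 9.76 and 9.73 with HAS3 siRNA, where it was at least 28.5-fold above scrambled. It was undetected on the scrambled arrays, and the siRNA arrays exceeded the untreated ones as well. CPE, a peptide-processing enzyme, fell by 1.28 with Y15 and rose by 2.04 with the siRNA, with scrambled cells 3.14 below untreated ones. TNFRSF4, the costimulatory receptor OX40, was at least 2.74-fold higher with the siRNA and fell by 1.28 with Y15. Without a large control difference, ACSS2, which makes acetyl-CoA from acetate, fell by 0.59 and rose by 1.61, with scrambled and untreated cells 0.18 apart. EPHX2, TSPAN32 and GOLIM4 kept their opposite calls under all 18 settings in which they were tested.

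Positive differences were called for 4 globin genes, HBQ1, HBE1, HBG2 and HBG1. HBQ1, theta globin, read 8.60 and 8.83 untreated, 6.61 and 6.01 with Y15, 7.16 and 7.29 scrambled and 8.42 and 8.71 with HAS3 siRNA. Its siRNA arrays regained the untreated level. HBE1, epsilon globin, rose with the siRNA only (2.37 ± 0.19), from scrambled cells 1.81 below untreated cells. HBA2 and the gonadotropin genes CGB5, CGB1, CGB3 and LHB rose with Y15 only. CGB5 was detected with Y15 alone and at least 16.5-fold higher. HBA2, CGB5, CGB1 and LHB were undetected on all transfected arrays, so their siRNA effects have no measured size and a fall with the siRNA could not be seen. The CGB genes are near-identical copies, as are HBG1 and HBG2, so their probes may read each other's transcripts and their separate values are uncertain.

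Heat shock proteins refold damaged proteins, and HSF1 induces the set when unfolded proteins gather. HSPA1A, the inducible HSP70, read 8.90 and 9.08 untreated, 11.73 and 11.18 with Y15, 9.22 and 8.36 scrambled and 8.76 and 9.27 with HAS3 siRNA. The siRNA and scrambled arrays overlapped, and the HAS3 siRNA effect was 0.22 ± 0.27. HSPA1B read the same way, but it is a near-identical copy and its separate value is uncertain. BAG3, the HSP70 cochaperone, rose by 2.48 ± 0.18 with Y15 and stood at 0.13 with the siRNA, within 1.5-fold, and DNAJB1 and DNAJA4 rose with Y15 only. Of 43 heat shock genes 19 rose with Y15 and none with HAS3 siRNA, beside 18.8% and 3.47% of all genes. The lack of rises with the siRNA is near that last share. A negative difference was called in 12 (27.9%, beside 13.8%), 11 of them rising with Y15 only (10.1% of all genes). Under median centring 5 had, and the list's median difference turned from -0.30 to 0.05.

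NRF2, encoded by NFE2L2, turns on antioxidant enzymes when its inhibitor KEAP1 is oxidised or alkylated. Of 34 targets, 14 had a negative difference and none a positive one, beside 13.8% and 17.0% of all genes. Of the 14, 12 rose with Y15 only, beside 10.1% of all genes. SRXN1, sulfiredoxin, read 9.36 and 9.44 untreated, 11.09 and 11.03 with Y15, 9.41 and 9.15 scrambled and 9.82 and 9.70 with HAS3 siRNA. Its siRNA arrays were above both scrambled arrays, and that effect, 0.48 ± 0.14, narrowly missed the threshold (adjusted p = 0.0594) and passed it under other settings, and its difference was called under all of them except median centring. TXNRD1, thioredoxin reductase, rose by 1.43 and was within 1.5-fold with the siRNA (0.16). GCLM, NQO1, PRDX1, ALDH3A1, SLC7A11 and UGDH, the last of which also makes the sugar nucleotide used for hyaluronan, rose with Y15 only. NFE2L2 itself stood at 0.75 with Y15 and -0.57 with the siRNA, an opposite call lost when any 1 transfected array was left out, and GSR fell with the siRNA only (-0.77). The antioxidant element TGACNNNGC was in 8 of 29 promoters of the list (27.6%) and in 1365 of 8959 of all tested genes (15.2%). The list's negative calls dropped to 3 under median centring, where its median difference was 0.02, and to 9 without scrambled replicate 2.

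**Figure D5:**
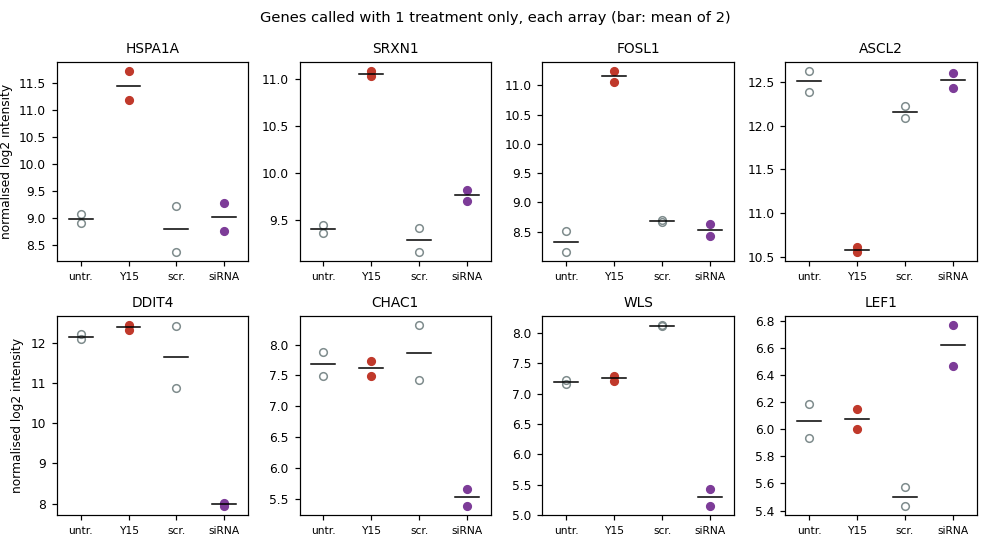
Normalised log2 intensity on each of the 8 arrays for genes that responded to 1 treatment: HSPA1A, SRXN1 and FOSL1 rose with Y15 only, ASCL2 fell with Y15 only, DDIT4, CHAC1 and WLS fell with HAS3 siRNA only, and LEF1 rose with HAS3 siRNA only. Horizontal bars are group means; for SRXN1 the siRNA arrays lie above the scrambled ones, an effect that did not pass.

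Of 41 proteasome subunits 9 rose with Y15 only, beside 10.1% of all genes, with PSMD12 the highest (1.24, HAS3 siRNA effect 0.25). None had opposite calls, which were made for 0.967% and 1.15% of all genes in the 2 patterns. No negative call was left under median centring, which turned the median difference from -0.29 to 0.21. Of 20 NF-kB genes 6 rose with Y15 only, again beside 10.1% of all genes. Among them were BCL3 and TNFAIP3, which limit or modify NF-kB activity. TNFAIP3 stood at 2.28 with Y15 and 0.16 with the siRNA. Of 16 YAP and TEAD targets, genes of a pathway that senses cell tension, 6 rose with Y15 only and 2, AJUBA and FJX1, fell with Y15 only. Those classes held 10.1% and 12.9% of all genes. Dimmer AJUBA probes had Y15 effects of -0.25 and 0.11 and differences of 0.10 and -0.18, against a difference of 0.92. The class of AJUBA thus rests on its brightest probe. CCN2, the matricellular factor CTGF, read 6.73 and 6.98 untreated, 9.52 and 9.17 with Y15, 6.50 and 6.55 scrambled and 6.10 and 6.28 with HAS3 siRNA. GADD45A, shared by the YAP and p53 lists, stood at 1.14 with Y15 and -0.71 with the siRNA, an opposite call lost without either untreated or either scrambled array or HAS3 siRNA replicate 1.

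Of 26 genes known as p53 targets, 8 rose with Y15 only, beside 10.1% of all genes. CDKN1A, the cyclin-dependent kinase inhibitor p21, read 5.15 on both untreated arrays, 7.93 and 8.01 with Y15, 4.56 and 4.69 scrambled and 4.60 and 4.74 with HAS3 siRNA. It was undetected on all transfected arrays, so the siRNA effect has no measured size. SFN, the cell cycle regulator 14-3-3 sigma, rose by 3.22 with Y15 and stood at 0.49 with the siRNA (adjusted p = 0.091), an effect called under 4 of 19 settings, 2 of which left out a Y15 array. PERP, a desmosomal protein, fell with the siRNA only (-0.82). In the annexin and S100 list of 21, calcium-binding proteins of membranes and secretion, 7 rose with Y15 only, ANXA5 most (1.33, HAS3 siRNA effect 0.03), S100P had opposite calls (0.87 and -0.92, with a scrambled minus untreated value of -1.87), and ANXA1 rose with both. The S100P pair of calls was lost without Y15 replicate 2, scrambled replicate 2 or either siRNA array.

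The list of FAK, its partners and focal adhesion proteins held 43 tested genes. Negative differences numbered 10 and positive ones 5 (23.3% and 11.6%, beside 13.8% and 17.0% of all genes). Each of the 2 counts ranged from 2 to 12 under other settings. CAV2 and ZYX, a caveolar protein and an adhesion protein that responds to tension, rose with Y15 and fell with HAS3 siRNA (1.51 and -0.51 for CAV2, 0.56 and -0.63 for ZYX). A second ZYX probe, nearly as bright, had effects of 0.96 and -0.001, so the fall of ZYX is uncertain. A dim CAV2 probe had effects of -0.24 and -0.50, so the rise of CAV2 rests on its brightest probe. DOCK1, which activates Rac, stood at -0.85 and 0.59. The opposite calls of CAV2 and DOCK1 were lost when any 1 transfected array was left out, and that of ZYX without scrambled replicate 2 or either siRNA array. CAV1, PXN, VASP and FERMT2 rose with Y15 only and TNS3, LPP and FYN fell with Y15 only, though 1 of 4 FYN probes had a Y15 effect of 0.19. NEDD9, a docking protein of FAK and Src, fell with both, more with the siRNA (-1.64) than with Y15 (-0.66), with scrambled cells 1.07 above untreated ones. SRC, BCAR1 and VCL had no called effect. Of 12 hyaluronan genes CD44 and UGDH had negative differences and HMMR and HYAL2 positive ones, all responding to Y15 only, HYAL2 in 9 of 19 settings. That is 16.7% each way, near the 13.8% and 17.0% of all genes. HAS2 rose and CEMIP, which cuts hyaluronan, fell with both.

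Of 68 oxidative phosphorylation subunits 12 fell with Y15 only, beside 12.9% of all genes, and no subunit was called with HAS3 siRNA in either direction. Of all genes 3.47% rose and 4.74% fell with the siRNA. The largest falls among the 12 were those of NDUFS8 (-1.15), ATP5F1D (-1.14) and NDUFS7. Positive differences numbered 13 (19.1%, near the 17.0% of all genes), against 5 under centring on the detected probes, which also turned the median difference from 0.18 to -0.26. Among single genes that fell with Y15 only, with the siRNA effect within 1.5-fold, SPAG16, NOXA1, TRAF5 and HDAC4 had some of the larger changes. TRAF5, an adaptor of TNF receptors, read 10.12 and 10.44 untreated, 8.40 and 8.03 with Y15, 9.75 and 9.77 scrambled and 9.83 and 9.86 with HAS3 siRNA. HDAC4, a histone deacetylase, fell by 1.83 ± 0.15 with Y15 and stood at -0.05 with the siRNA. GAST, the hormone gastrin, moved in the other direction, at 2.74 ± 0.14 with Y15 and -0.04 with the siRNA.

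Beside the ATF4 targets, genes that fell with HAS3 siRNA only included FSCN1, MARCKS, BAMBI and ALDH1A1. FSCN1, fascin, which bundles actin in filopodia, read 12.39 and 12.43 untreated, 12.70 and 12.41 with Y15, 12.29 and 12.22 scrambled and 9.78 and 10.22 with HAS3 siRNA. The siRNA arrays lay below all 6 others, the controls were 0.16 apart, and the HAS3 siRNA effect of -2.25 ± 0.17 was called under all 19 settings. MARCKS, which ties actin to the membrane, read 10.42 and 10.35, 10.38 and 10.25, 10.66 and 10.72, and 8.84 and 8.95 in the same order. BAMBI, a decoy receptor of TGF-beta, fell by 1.07 and stood at -0.22 with Y15, a class lost without scrambled replicate 2 or HAS3 siRNA replicate 1. ALDH1A1, an aldehyde dehydrogenase used as a stem cell marker, was at least 2.73-fold lower with the siRNA than in scrambled cells, which were the sole group where it was detected. On the untreated, Y15 and siRNA arrays ALDH1A1 was undetected, so its Y15 effect has no measured size and a fall with Y15 could not be seen.

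Genes that rose with HAS3 siRNA only included HENMT1, PCDHB5, SCML2 and EPHA4. HENMT1, an RNA methyltransferase that protects small RNAs in the germ line, read 6.41 and 6.80 untreated, 6.76 and 6.90 with Y15, 6.54 and 6.42 scrambled and 8.15 and 8.20 with HAS3 siRNA. Its rise of 1.70 ± 0.15 had controls 0.13 apart and was called under all 19 settings. PCDHB5, a protocadherin, was at least 2.4-fold higher with the siRNA. SCML2, a Polycomb protein, rose by 1.63 from a scrambled level 1.35 below untreated. EPHA4, an ephrin receptor, rose by 1.38 and stood at -0.31 with Y15.

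Genes of cholesterol synthesis, which SREBP factors induce when sterols are low, fell into several classes. HMGCS1, MSMO1, SQLE, NSDHL and LPIN1 rose with both treatments, SQLE and NSDHL more with the siRNA (1.05 and 1.33) than with Y15 (0.38 and 0.47). SC5D, EBP and NPC1 rose with Y15 only, while MVD, LSS, PMVK and TM7SF2 fell with Y15 only, and MVK rose with the siRNA only (0.57). Of 33 members 9 had a positive and 5 a negative difference (27.3% and 15.2%, beside 17.0% and 13.8% of all genes). The median difference of 0.06 changed sign with the setting. Of 73 cytosolic ribosomal proteins 2 had a positive and 7 a negative difference (2.74% and 9.59%), although centring on the detected probes gave 50 negative calls. Of 66 genes of ribosome biogenesis 8 had a positive and 1 a negative one (12.1% and 1.52%). Both families were thus called less often than all genes each way (17.0% and 13.8%). In the mitotic list of 82, 46 genes were higher in scrambled than in untreated cells, beside 8.84% of all genes. With HAS3 siRNA 1 was called, a fall, whereas 3.47% of all genes rose and 4.74% fell. The mitotic list had 14 positive and 12 negative differences (17.1% and 14.6%), near the 17.0% and 13.8% of all genes.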

How the data were processed

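Labelled cRNA from 8 SW620 samples was read on Illumina bead arrays of 24526 probes. The table deposited by the authors gives an intensity that was not normalised, with a detection p-value per probe and array; the submitters' processing notes name GenomeStudio. The deposited series matrix holds log2 values equal to quantile-normalised log2 intensities within 5e-09 and served as an alternative.

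Intensities were background-corrected with limma's nec (detection p-values, offset 16), log2-transformed and quantile-normalised (R 4.3.3, limma 3.58.1). Probes with detection p under 0.05 on 2 or more arrays and 1 gene symbol were kept, the brightest per gene, giving 10856 genes. Group means were fitted with lmFit and eBayes over all 8 arrays without a block, with Benjamini-Hochberg adjustment over all genes and a threshold of 0.05. "At least" folds apply where the dimmer group was undetected on both arrays. Gene symbols are those of the platform annotation, brought up to date with RefSeq (GRCh38.p14). The fit was tested on simulated data. Named were HAS3 and PTK2, the 12 largest called differences each way, 15 genes of each opposite pattern by their smaller change, 12 per direction of the genes called with 1 treatment and within 1.5-fold with the other, up to 5 per list by p, and further members where a family is described; not all are printed. The members and lists were chosen with earlier results of these data known. Alternatives varied background correction, scaling, detection filter, probe choice, block, array weights and each array left out. Promoter motifs were sought on both strands of RefSeq promoters.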

Additional observations from a re-analysis of the deposited data

How the results depend on the processing

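The number of genes with a called difference was 2559 to 3678 under the 11 alternatives that kept all arrays, and 2249 to 3608 with 1 array left out, against 3345. Opposite calls numbered 110 under median centring over all probes and 143 under centring on the detected probes, an alternative added after the data were seen, and 99 to 308 with 1 array left out, against 230. Calls with HAS3 siRNA only, 278 in all, numbered 110 under median centring, 183 under detection at p under 0.01 on all 8 arrays, 183 when the Y15 interval had to lie within 1.5-fold, and 108 to 357 with 1 array left out. Same-direction calls, 260 in all, numbered 63 and 133 under the centrings and 93 to 324 with 1 array left out. Calls with Y15 only numbered 1781 to 2581 with 1 array left out. The share of positive calls moved most with centring, to these positive and negative counts: 3035 and 339, or 1085 and 2345, against 1850 and 1495. Fewer samples remain when an array is left out; otherwise the cause of these shifts was not tested.

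The replicate numbers were not shown to pair the samples: deviations of same-numbered arrays correlated at -0.07 to 0.27 over the 6 pairs of groups. With the number as a replicate block, 3678 differences were called (2018 positive and 1660 negative) and 310 genes had opposite calls.

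Of 445 genes examined, 180 lost the call of the difference in at least 1 setting and 33 changed its sign in at least 1; the cause was not tested. Under median centring over all probes, the difference was CEMIP 0.40, DUSP14 0.11, DUSP6 0.70, EIF2AK2 0.40, FGF21 -0.22, HAS3 0.29, HMGCS1 0.051, HOXC13 0.028, IFI6 0.68, KLF11 0.43, KLF2 0.34, LPIN1 0.50, MYC 0.30, PSAT1 0.34, PTK2 0.53 and SRC 0.16. Under cyclic loess, the difference was BCAR1 -0.0095. When probes were averaged, the difference was DUSP6 0.16, ERBB3 -0.11, IFI6 0.025, KLF10 -0.46 and MSMO1 -0.038. Under centring on the detected probes, the difference was ACTA2 -0.18, CCND1 -0.32, CXCL6 -0.062, EGFL7 -0.28, FGF21 -0.93, HES2 -0.075, MYCN -0.061, RIGI -0.56, SHMT2 -0.17 and VCL -0.19. Without untreated replicate 1, the difference was BCAR1 -0.18, CEMIP 0.0033, HAS2 -0.022, IFI6 0.088, KLF10 -0.20 and PTK2 0.12. Without untreated replicate 2, the difference was DUSP6 0.069, FGF21 -0.0061 and PSAT1 0.0055. Without Y15 replicate 1, the difference was DUSP6 0.11. Without Y15 replicate 2, the difference was BCAR1 -0.20, FGF21 -7.8e-05, KLF10 -0.017, MSMO1 -0.15, PSAT1 0.26 and PTK2 0.073. Without scrambled replicate 1, the difference was DUSP6 0.02, FGF21 -0.0085 and RIGI -0.0074. Without scrambled replicate 2, the difference was ASNS 0.24, BCAR1 -0.03, CEMIP 0.0092, IFI6 0.12, INHBE 0.20, KLF10 -0.0028, PSAT1 0.19 and PTK2 0.034. Without HAS3 siRNA replicate 1, the difference was FGF21 -0.061, IFI6 0.041, KLF10 -0.16 and MYC 0.11. Without HAS3 siRNA replicate 2, the difference was ISG15 -0.012, PSAT1 0.042 and PTK2 0.018. The other ends of the ranges with 1 array left out were ASNS -0.89, CEMIP -0.14, IFI6 -0.24 and INHBE -1.63 without scrambled replicate 1, BCAR1 0.28 and MSMO1 0.42 without Y15 replicate 1, HAS2 0.17 without untreated replicate 2, FGF21 0.15 and MYC -0.29 without HAS3 siRNA replicate 2, and ISG15 0.15 without HAS3 siRNA replicate 1. Low signal over background limits the folds of genes undetected in a group, which are bounds.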
